A study of Mus musculus with 12 samples.

Results

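The 10 genes described here encode the core of the transforming growth factor beta (TGF-beta) pathway: the ligand gene Tgfb1, the latency protein gene Ltbp3, the receptor and co-receptor genes Tgfbr1, Tgfbr2, Tgfbr3 and Eng, and the Smad genes Smad2, Smad3, Smad4 and Smad7. They were chosen with earlier results of these data known. They were taken by gene symbol, as the probe sets annotated with that symbol alone, and are 10 of 19935 genes on the array. Each had 1 probe set, and all 10 lay above the filter on dim genes, a mean log2 value of 7.52, which is an intensity of 182. The study hybridised 12 arrays with RNA of hematopoietic stem cells (HSCs) from mouse, the source of every blood lineage. Each sort collected 5000 to 7000 cells that were lineage-, Sca-1+, c-kit+, CD48- and CD150+. The mice were 2 to 3 months old and received, under the skin, 100 µL of corn oil either with 2 µg of estradiol (E2), the main estrogen, or alone. The 4 groups were E2-treated males, oil-treated males, E2-treated females and oil-treated females, with 3 arrays each, from 3 mice per group. The labels name neither the strain nor how long treatment lasted. The p-values measure the spread between these arrays.

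TGF-beta is secreted bound to a latency complex and has to be released from it before it can signal. Free ligand binds the type II receptor, which recruits and phosphorylates the type I receptor; that receptor then phosphorylates Smad2 and Smad3, which join Smad4 and enter the nucleus. Smad7 is induced by the pathway and inhibits it. In bone marrow, TGF-beta signalling is known for holding HSCs in quiescence.

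Median intensities of the arrays ran from 143.3 to 159.4. The 3 female E2 arrays resembled each other less than the arrays of the other groups did, with median correlations to their own group of 0.9614 to 0.9637, against 0.9745 to 0.9806 on the other 9 arrays. The HSC surface genes were measured as the sort implies, with Kit at 1820 to 2756 and Slamf1, which encodes CD150, at 350 to 686 on the 12 arrays. Cd48 stayed at 62.8 to 116, below the filter, and the T cell gene Cd3e read 230 to 291. Neither of these was at 0.

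Across both sexes, E2 lowered the mRNA of 5 of the 10 genes and raised 0. These were the type II receptor gene Tgfbr2, the co-receptor gene Tgfbr3, the signalling Smad gene Smad3, the inhibitory Smad gene Smad7 and the latency gene Ltbp3, with changes of -32.4%, -23.2%, -21.2%, -23.6% and -22.1% (limma, E2 minus oil averaged over the sexes, 6 arrays on each side). The other 5, Tgfb1, Tgfbr1, Eng, Smad2 and Smad4, did not pass. Of all 9967 genes tested, 5.78% were called lower in this comparison, 3.12% higher and 8.90% in either direction, at a Benjamini-Hochberg adjusted p under 0.05. The median log2 difference over the 10 genes was -0.27, and over all genes tested it was -0.01. Since the 10 genes were chosen with earlier results of these data known, these comparisons with all genes are descriptions.

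Promoter sequence is shown for the genes among these 5 that were searched, since they fell together. Of the 10 genes, 6 were searched in RefSeq promoter entries (build GRCm38.p6). Tgfbr3, Smad2, Smad4 and Smad7 were not searched. Each line gives the 250 bases before the annotated start, 5′ to 3′ on the strand of the gene. Capitals mark matches, on either strand, to GGTCA, which is 1 arm of the estrogen response element, to a Smad box CAGAC or to an Sp1 box GGGCGG.
Tgfbr2, chr9:116175364-116175613, minus strand: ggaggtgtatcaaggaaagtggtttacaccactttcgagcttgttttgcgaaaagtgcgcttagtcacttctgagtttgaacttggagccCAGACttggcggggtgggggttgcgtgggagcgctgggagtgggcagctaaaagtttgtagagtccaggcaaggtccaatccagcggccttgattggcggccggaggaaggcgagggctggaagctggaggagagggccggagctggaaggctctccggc
Smad3, chr9:63757995-63758244, minus strand: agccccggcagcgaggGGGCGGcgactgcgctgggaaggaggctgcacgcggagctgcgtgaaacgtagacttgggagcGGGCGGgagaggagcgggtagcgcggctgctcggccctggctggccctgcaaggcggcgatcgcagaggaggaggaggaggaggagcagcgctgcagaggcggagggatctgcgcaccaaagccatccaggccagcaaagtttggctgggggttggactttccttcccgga
Ltbp3, chr19:5740650-5740899, plus strand: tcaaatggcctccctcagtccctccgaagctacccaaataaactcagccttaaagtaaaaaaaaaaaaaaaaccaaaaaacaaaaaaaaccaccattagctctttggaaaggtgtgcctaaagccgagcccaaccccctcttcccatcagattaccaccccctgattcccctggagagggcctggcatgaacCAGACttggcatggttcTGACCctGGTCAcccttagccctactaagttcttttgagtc

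The 3 windows held different matches. That of Tgfbr2 had 1 Smad box, at position -160 counted from the start. That of Smad3 had 2 Sp1 boxes, at -234 and -171. That of Ltbp3 had 1 Smad box at -58 and 2 GGTCA arms on opposite strands, at -41 and -34. Among 32851 promoter windows of this length, 42.2% held a Smad box, 35.2% a GGTCA arm and 32.7% an Sp1 box. The full estrogen response element is GGTCA and TGACC with any 3 bases between. It occurred in 0 of the 7 windows of the 6 genes searched and in 0.0639% of all windows. The AP-1 site TGACTCA occurred in 0 of the 7 and in 4.46% of all. These are matches of letters in a short window and say nothing of binding.

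Among the genes of the ligand, Ltbp3 was the one that changed. It encodes a latent TGF-beta binding protein, which carries the ligand in its latent complex and anchors it in the matrix. Ltbp3 had intensities of 439, 462 and 467 in E2-treated males, against 586, 562 and 604 in oil-treated males. In females the values were 419, 389 and 414 under E2, against 486, 554 and 536 under oil. E2 arrays did not overlap oil arrays in either sex, and the gene had the smallest within-group spread of the 10, an SD of 0.07 on the log2 scale. Its log2 difference was -0.36 ± 0.06 (SE) averaged over the sexes (limma, adjusted p = 0.00166).

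Tgfb1, the ligand itself, had 861, 801 and 784 in E2-treated males, against 854, 836 and 827 in oil-treated males. Female arrays had 837, 609 and 694 under E2, against 916, 832 and 774 under oil. The groups overlapped in both sexes. Its log2 difference of -0.14 averaged over the sexes did not pass (95% confidence interval -0.31 to 0.02, limma adjusted p = 0.273). That interval ends short of the estimates of the 5 called genes. It overlaps the intervals of Smad3, -0.51 to -0.17, Tgfbr3, -0.54 to -0.22, Smad7, -0.55 to -0.23, and Ltbp3, -0.48 to -0.24. It does not overlap that of Tgfbr2, -0.81 to -0.32. In females the Tgfb1 estimate was -0.25 (95% confidence interval -0.48 to -0.01, limma adjusted p = 0.246).

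Among the receptor genes, the type II receptor showed the largest difference of the 10. Tgfbr2 encodes the receptor that binds the ligand first and is required for signalling. Its intensities were 359, 288 and 300 in E2-treated males, against 375, 523 and 422 in oil-treated males. In females they were 222, 238 and 348 under E2, against 404, 445 and 406 under oil. Again no E2 array reached the lowest oil array of its sex, although in males the gap was narrow (359 against 375). Tgfbr2 also varied most within groups, with an SD of 0.23 on the log2 scale. The averaged log2 difference was -0.57 ± 0.11 (SE; limma adjusted p = 0.00831).

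Tgfbr3 encodes betaglycan, the co-receptor that presents ligand to the type II receptor. It had 453, 480 and 452 in E2-treated males, against 595, 664 and 602 in oil-treated males. Females gave 397, 342 and 409 under E2, against 557, 469 and 428 under oil. The E2 arrays lay below the oil arrays in both sexes, widely in males and narrowly in females. The averaged log2 difference was -0.38 ± 0.07 (SE; limma adjusted p = 0.00712).

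Tgfbr1, the type I receptor gene, gave a less even picture. Males had 294, 359 and 277 under E2, against 385, 362 and 393 under oil, so that the male groups did not overlap but came within 3 units. Females had 380, 333 and 321 under E2, against 372, 349 and 324 under oil, which overlapped. Its averaged log2 difference of -0.16 did not pass (95% confidence interval -0.32 to 0.00; limma adjusted p = 0.213).

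Eng encodes endoglin, a co-receptor also known from endothelium and HSCs, and was the single gene of the 10 with a positive averaged estimate. It read 1470, 1242 and 1382 in E2-treated males, against 1208, 1322 and 1262 in oil-treated males. In females it read 1211, 1176 and 1342 under E2, against 1257, 1258 and 1171 under oil. The groups overlapped in both sexes. The averaged log2 difference was 0.06 (95% confidence interval -0.07 to 0.20; limma adjusted p = 0.598), an interval that does not reach the decreases estimated for the 5 called genes.

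**Figure D1:**
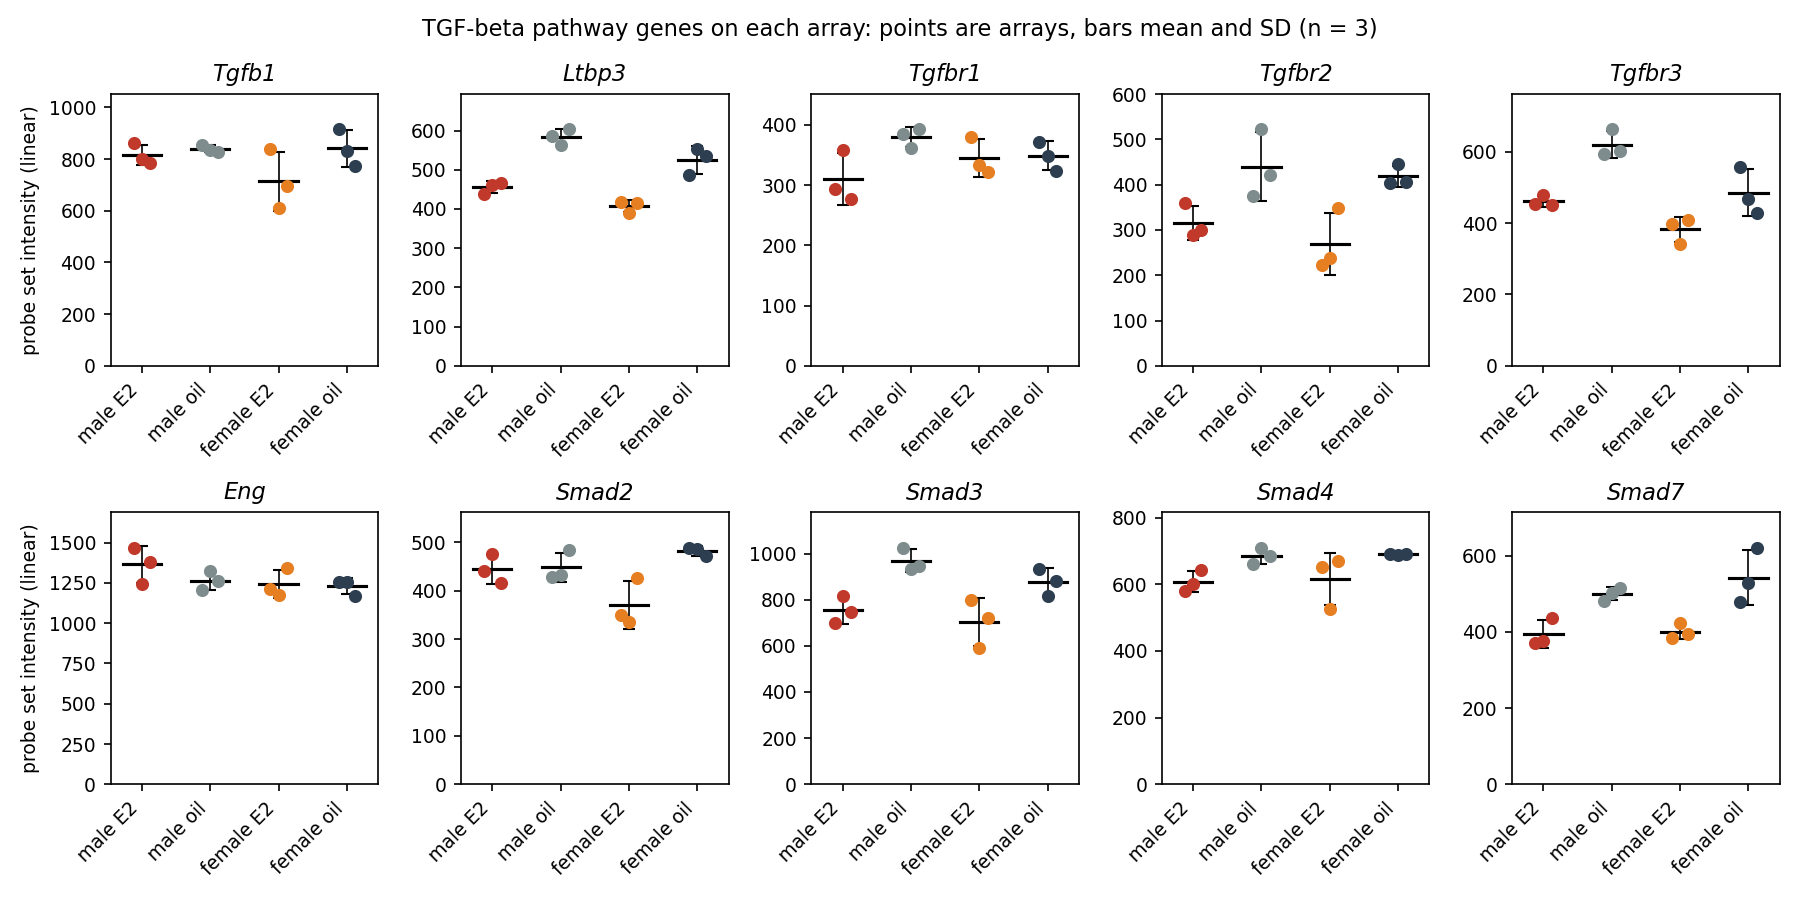
Probe set intensity (linear scale, from 0) of the 10 genes on each of the 12 arrays, as points by group, with the mean and SD of 3 arrays as bars. Ltbp3 lies between 389 and 467 on the 6 E2 arrays and between 486 and 604 on the 6 oil arrays, while the groups of Tgfb1 and Eng overlap.

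Of the Smads, Smad3 and Smad7 changed. Smad3, which carries the signal of the activated receptor and binds DNA, had 698, 818 and 748 in E2-treated males, against 1026, 934 and 948 in oil-treated males. The female values were 798, 591 and 722 under E2, against 933, 814 and 881 under oil. E2 and oil arrays were separate in both sexes. The averaged log2 difference was -0.34 ± 0.08 (SE; limma adjusted p = 0.0161).

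Smad7, the inhibitory Smad, acts as feedback on the receptors. It had 370, 377 and 435 in E2-treated males, against 482, 503 and 516 in oil-treated males. Among females there were 384, 422 and 394 under E2, against 478, 528 and 621 under oil. Here too each E2 array lay below each oil array of its sex. The averaged log2 difference was -0.39 ± 0.07 (SE; limma adjusted p = 0.00543).

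Smad2, the other Smad phosphorylated by the TGF-beta receptor, had 440, 475 and 416 in E2-treated males, against 428, 433 and 483 in oil-treated males, which overlapped. Female arrays had 350, 335 and 427 under E2, against 489, 486 and 471 under oil, which did not. Its averaged log2 difference of -0.20 did not pass with all arrays (95% confidence interval -0.35 to -0.05; limma adjusted p = 0.0976) and passed without female E2 replicate 3 (-0.25, adjusted p = 0.0208).

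Smad4, the common partner of the receptor-activated Smads, had 579, 601 and 643 in E2-treated males, against 661, 710 and 685 in oil-treated males. Females gave 652, 527 and 671 under E2, against 691, 688 and 691 under oil. The E2 arrays lay below the oil arrays in both sexes, by small margins. The averaged log2 difference of -0.17 did not pass (95% confidence interval -0.32 to -0.03; limma adjusted p = 0.128).

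Counted over the 10 genes, the E2 arrays all lay below the oil arrays for 7 genes in males, 7 in females and 6 in both sexes: the 5 called genes and Smad4. Over all genes tested the same held for 13.0% in males, 13.1% in females and 4.88% in both. The opposite order, E2 above oil, held for 0 of the 10 genes in males and for 0 in females, against 13.6% and 6.95% of all genes tested, and 2.32% in both sexes. These are whole sorted populations, in which fewer cells expressing a gene and less RNA per cell cannot be told apart.

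**Figure D2:**
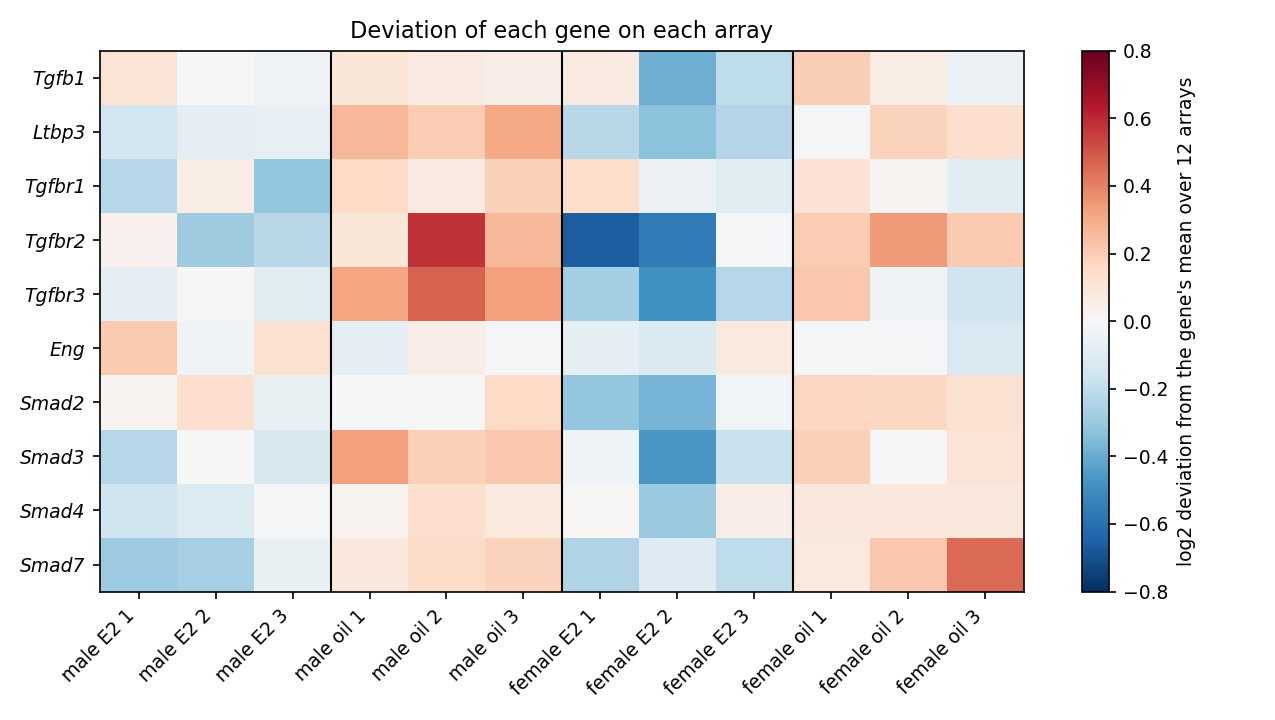
Deviation of each gene from its own mean over the 12 arrays, on the log2 scale, with genes in rows and arrays in columns. Female E2 replicate 2 is the array on which all 10 genes lie below their mean, and the oil arrays of males lie above it for the 5 called genes.

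The arrays did not contribute evenly. On female E2 replicate 2, 10 of the 10 genes lay below their own mean over all arrays, and the median deviation was -0.35 on the log2 scale. On the other E2 arrays the number below was 7 and 8 of 10 in females and 6, 5 and 9 of 10 in males. On the oil arrays it was 1 or 2 of 10 in males and 2 to 4 in females. Without female E2 replicate 2, the same 5 genes were called in the averaged comparison, and the median over the 10 genes was -0.22.

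Taken by sex, fewer of the differences passed. In males, 1 of the 10 genes was called lower, Ltbp3 at -0.36 ± 0.08 (SE; limma adjusted p = 0.0429), where 0.863% of all genes tested were called lower, 0.572% higher and 1.43% in either direction. Tgfbr2, Tgfbr3, Smad3 and Smad7 had male log2 differences of -0.47, -0.42, -0.36 and -0.35, with adjusted p of 0.192, 0.0741, 0.143 and 0.127. In females, 3 of the 10 were called lower, against 2.75% of all genes tested called lower, 0.813% higher and 3.56% in either direction: Tgfbr2 at -0.66 ± 0.16 (SE; limma adjusted p = 0.0414), Smad7 at -0.43 ± 0.10 (adjusted p = 0.0374) and Ltbp3 at -0.36 ± 0.08 (adjusted p = 0.0249). Tgfbr3, Smad3 and Smad2 had female log2 differences of -0.34, -0.32 and -0.38, with adjusted p of 0.102, 0.128 and 0.0516.

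These calls within a sex were close to the threshold and depended on single arrays. In males, the call of Ltbp3 was lost without any 1 of the 6 male arrays or of female oil replicates 2 and 3, with adjusted p of up to 0.177 and log2 differences of -0.38 to -0.33. In females, Tgfbr2 and Smad7 each lost the call in 8 of 12 such fits (adjusted p up to 0.156 and 0.145), and Ltbp3 lost it in 3 (up to 0.13), those without female E2 replicate 2 or female oil replicates 2 and 3. All fits kept the direction of these values. Of the 10 genes, these fits called 0 to 2 in males, 0 to 3 in females, and 5 or 6 in the averaged comparison.

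Over all genes tested, 81 were called higher and 274 lower in females, and 45 and 358 after each array was centred on its median.

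**Figure D3:**
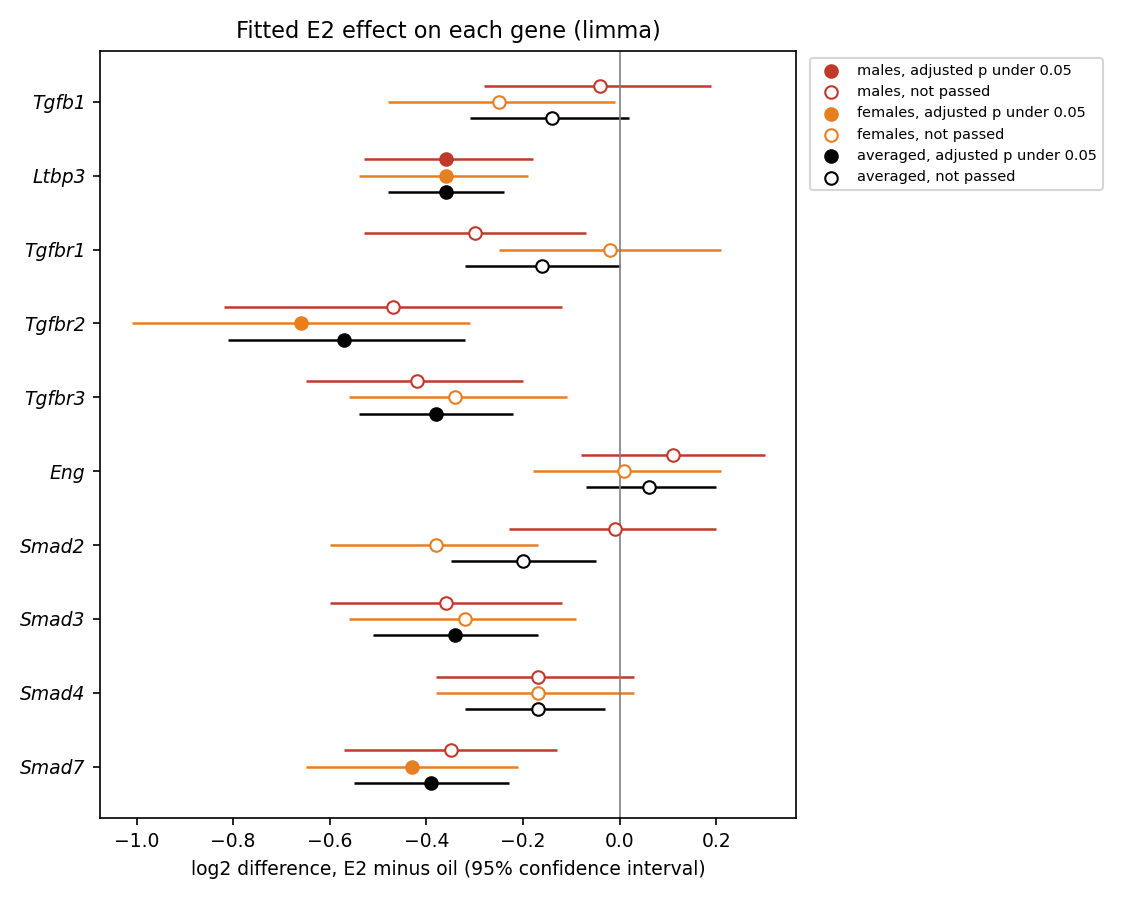
Log2 difference, E2 minus oil, of each gene within males, within females and over both sexes, with 95% confidence intervals from limma. Filled points passed an adjusted p of 0.05, which 5 genes did in the averaged comparison, 1 in males and 3 in females.

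The response of females was set against that of males through the interaction term. For 0 of the 10 genes did the difference pass, 0.0100% of all genes tested being called (limma). At an unadjusted p under 0.05 there was 1, Smad2, whose log2 difference between the responses was -0.37 ± 0.14 (SE; adjusted p = 0.907). The estimate was -0.01 in males and -0.38 in females. Tgfbr1 leaned the other way, at 0.28 (95% confidence interval -0.04 to 0.61; adjusted p = 0.954). For Ltbp3 the 2 responses were nearly equal, with a difference of -0.01 (95% confidence interval -0.25 to 0.24).

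Under oil, 0 of the 10 genes differed between females and males, where 0.0401% of all genes tested were called (limma). At an unadjusted p under 0.05 there was 1, Tgfbr3, at 557, 469 and 428 in oil-treated females, against 595, 664 and 602 in oil-treated males. These arrays did not overlap, yet the log2 difference of -0.36 ± 0.11 (SE) did not pass (adjusted p = 0.738). Smad3 and Ltbp3 were also lower on each female oil array than on each male one, with log2 differences of -0.15 each (limma adjusted p = 0.997 and 0.986). The gaps were narrow, 933 against 934 for Smad3 and 554 against 562 for Ltbp3. The share of all genes tested that were separated by sex in this way was not counted. By group mean, male oil stood highest for Tgfbr1, Tgfbr2, Tgfbr3, Smad3 and Ltbp3, female oil for Smad2, Smad4 and Smad7, and male E2 for Eng. Female E2 stood lowest for Tgfb1, Tgfbr2, Tgfbr3, Smad2, Smad3 and Ltbp3. For Tgfb1 the highest groups had means of 841 ± 71.8 in oil-treated females and 839 ± 13.9 in oil-treated males (SD, n = 3 each), closer than their spread.

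The rest of the pathway was examined through lists of its parts, compiled with earlier results of these data known. Of 14 listed genes of ligand release and activation, 5 lay above the filter and were tested. Of these 5, Thbs1 rose and 4 did not pass, where 3.12% of all genes tested were called higher in the averaged comparison. Thbs1 encodes thrombospondin 1, a matrix protein known to activate latent TGF-beta. It had 1516, 752 and 1008 in E2-treated males, against 102, 88.6 and 95.8 in oil-treated males. The female values were 417, 1254 and 1930 under E2, against 181, 292 and 110 under oil. No E2 array overlapped an oil array of its sex, with a wide gap in males. Averaged over the sexes, the log2 difference was 2.96 (limma adjusted p = 0.000128), but Thbs1 passed the filter through its E2 arrays, and 5 of its 6 oil values lay below 182, so the size is set against dim arrays. Furin, which cleaves the Tgfb1 precursor, had -0.20 (adjusted p = 0.0835). The other TGF-beta ligand genes, Tgfb2 and Tgfb3, were below the filter and not tested. Tgfb2 read 91.6 to 150 on all arrays. Tgfb3 had 163, 103 and 90.9 in E2-treated males, against 62.3, 64.3 and 57.1 in oil-treated males, so that E2 lay above oil, and in females 58.3, 131 and 230 under E2, against 71.2, 77.4 and 75.7 under oil, which overlapped.

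Related receptors and co-receptors did not pass. Of 14 listed, 8 lay above the filter, which included the activin receptor genes Acvr1b, Acvr2a and Acvr2b and the BMP receptor gene Bmpr2. Of these 0 passed in the averaged comparison by limma and 0 had an unadjusted p under 0.05, with a median log2 difference of -0.02. Acvrl1, an endothelial type I receptor gene, read 81.1 to 113 and lay below the filter. Of 16 listed genes of the BMP and activin ligands and their antagonists, 7 were tested, 0 passed by limma and 0 had an unadjusted p under 0.05 (median -0.02).

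Of 24 other Smads and Smad partners, 20 were tested. Of these 20, Crebbp fell and 19 did not pass (median -0.09), where 5.78% of all genes tested were called lower. Crebbp, the CBP coactivator that Smads share with many factors, had 1180, 1124 and 1183 in E2-treated males, against 1383, 1333 and 1322 in oil-treated males. Among females there were 1038, 982 and 1095 under E2, against 1267, 1333 and 1394 under oil, again with no overlap, and the averaged log2 difference was -0.29 ± 0.05 (SE; limma adjusted p = 0.00626). The BMP Smads Smad1 and Smad5 had -0.09 and -0.20 (adjusted p = 0.546 and 0.0756). The corepressor genes Ski, Skil and Tgif1 had -0.08, 0.00 and -0.27 (adjusted p = 0.506, 0.982 and 0.0594).

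Known targets of the pathway moved in both directions. Of 23 listed, 13 were tested: 2 rose, 2 fell and 9 did not pass (median -0.07). Of all genes tested, 3.12% were called higher in the averaged comparison and 5.78% lower. Of the 2 that rose, Thbs1 passed the filter through its E2 arrays. That count leaves out targets below the filter, since 21 of the list were on the array and 13 were tested. Of those left out, Itgae, Bhlhe40 and Id1 were higher on each E2 array than on each oil array in both sexes. In the opposite order there were 0 in both sexes. Over all genes tested, 2.32% were higher in this way and 4.88% lower, but these shares cover genes above the filter alone. Itgae, which encodes an integrin chain, averaged 373 in E2-treated males, against 61.6 in oil-treated males, and 487 in E2-treated females, against 62.3 in oil-treated females. Bhlhe40, a transcription repressor gene, averaged 269 in E2-treated males, against 101 in oil-treated males, and 286 in E2-treated females, against 106 in oil-treated females. The means of Id1 were 137 in E2-treated males, against 112 in oil-treated males, and 129 in E2-treated females, against 108 in oil-treated females. These genes were not tested. Thbs1, itself a target, rose, and so did Tgfbi, which encodes a TGF-beta-induced matrix protein, at 0.48 ± 0.12 (SE; limma adjusted p = 0.0326). Tgfbi read 264, 236 and 278 in E2-treated males, against 202, 218 and 260 in oil-treated males, which overlapped. In females it read 355, 264 and 360 under E2, against 259, 178 and 152 under oil, which did not. Junb, an AP-1 subunit gene, fell by 0.59 on the log2 scale (limma adjusted p = 0.0163), with 178, 166 and 196 in E2-treated males, against 269, 257 and 192 in oil-treated males, and 173, 199 and 315 in E2-treated females, against 353, 358 and 443 in oil-treated females. Its male groups overlapped and its female groups did not. Tsc22d1, a TGF-beta-stimulated transcription regulator, fell by 0.24 (adjusted p = 0.0368). Cdkn1c, which encodes the CDK inhibitor p57 of quiescent HSCs, had -0.08 (adjusted p = 0.52), and Cdkn1a was not analysed here.

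**Figure D4:**
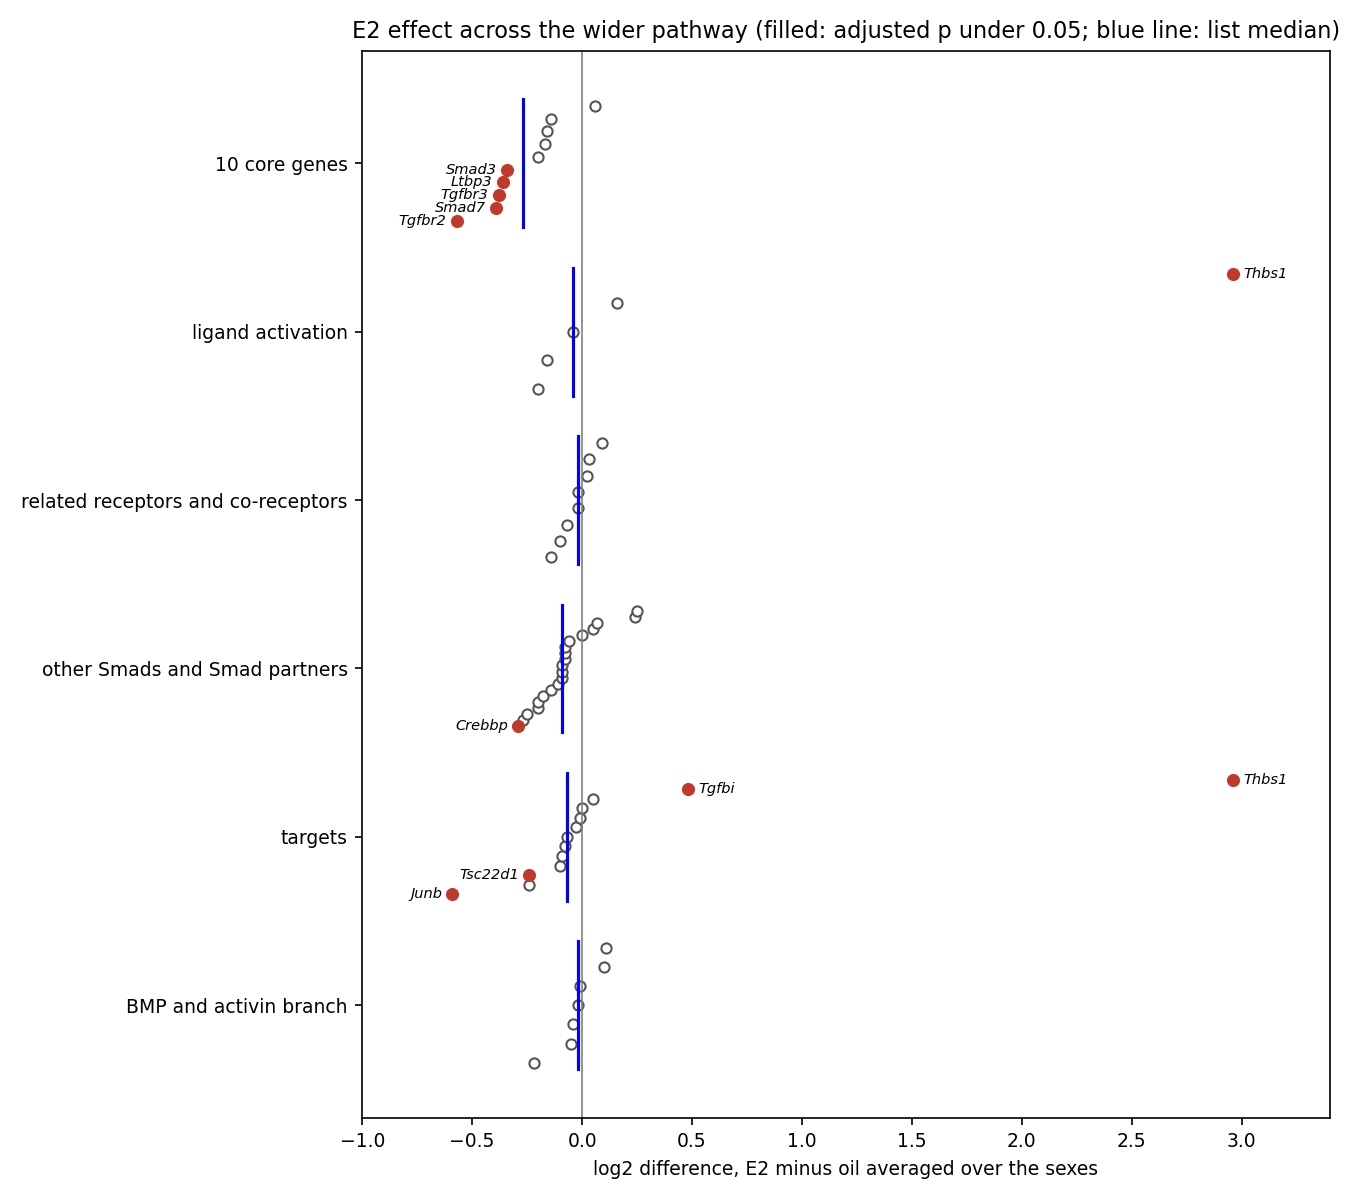
Log2 difference, E2 minus oil averaged over the sexes, for the 10 core genes and for the lists of the wider pathway, 1 point per tested gene, with list medians as blue lines and filled points for genes past an adjusted p of 0.05. The core genes have a median of -0.27 and the other lists lie between -0.09 and -0.02, with Thbs1 at 2.96 in the lists of ligand activation and of targets.

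The kept genes whose profiles over the 12 arrays were closest to each called gene were found from the root mean square difference of log2 values, each gene centred on its own mean. Closest to Tgfbr2 were Rcn3, Gstm5 and Robo4, at 0.113, 0.124 and 0.128, where the deviation of Tgfbr2 itself was 0.352. Closest to Tgfbr3 were Coro7, Ocrl and Msi2, at 0.089 to 0.112. Closest to Smad3 were Marchf7, Sh2b1 and the Smad corepressor gene Tgif1, at 0.087 to 0.089. Closest to Smad7 were Slc27a1, Morn2 and Ticam1, at 0.085 to 0.098. Closest to Ltbp3 were Alcam, Hdac7 and Kit, the stem cell factor receptor gene, at 0.066 to 0.073. These are descriptions over arrays that share the same treatment.

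Some cell type markers differed between the same groups. The summed intensity of 9 HSC markers was 11331 to 11768 in E2-treated males, against 12894 to 13025 in oil-treated males, and 10004 to 11608 in E2-treated females, against 11625 to 12690 in oil-treated females. Of these 9, Procr, Kit and Gata2 were called lower in the averaged comparison. The summed intensity of 9 megakaryocyte and platelet markers was 3776 to 3983 in E2-treated males, against 4562 to 4982 in oil-treated males, and 3064 to 3977 in E2-treated females, against 4479 to 4886 in oil-treated females. Of the 8 tested, 4 were called lower, Plek, Pf4, Gp5 and Itga2b, and 1 higher, Gp9. Pf4 had -1.40 and Gp9 0.51 (limma adjusted p = 6.59e-05 and 0.0187). Of all genes tested, 5.78% were called lower in the averaged comparison and 3.12% higher. Among 6 T and NK cell markers, Nkg7 alone set E2 apart from oil in both sexes, with means of 165 in E2-treated males, against 573 in oil-treated males, and 173 in E2-treated females, against 495 in oil-treated females. The list with Nkg7 summed to 621 to 683 in E2-treated males, against 953 to 1180 in oil-treated males, and to 643 to 683 in E2-treated females, against 898 to 1116 in oil-treated females. The other 5 overlapped in males, and in females 4 overlapped and Cd3g was higher under E2, at a mean of 35.6, against 29.3 under oil. Among 5 B cell markers, Cd79b was lower under E2 in both sexes, with means of 467 in E2-treated males, against 589 in oil-treated males, and 396 in E2-treated females, against 559 in oil-treated females, while Cd79a, Ms4a1, Pax5 and Ebf1 overlapped. Of 6 monocyte markers, Lyz2 was lower in E2-treated females, at a mean of 1310, against 1902 in oil-treated females, and the means of the other 5 were higher, among them Cd68 at 487 under E2, against 376 under oil, and Ccr2 at 147, against 88.6. In the averaged comparison, 0 of 2 monocyte and 0 of 4 endothelial genes tested were called. Called lower were 1 of 7 granulocyte genes (Prtn3), 1 of 2 T and NK cell genes (Nkg7) and 1 of 1 B cell gene (Cd79b). Called higher were 1 of 2 stromal genes (Col1a2) and 1 of 1 erythroid gene (Tfrc). Col1a2 passed the filter through its E2 arrays, since its oil values, 126 to 166 in males and 149 to 175 in females, lay below 182. Among the other stromal markers, Pdgfrb was lower under E2 in both sexes, and Col1a1 and Lepr were higher in females. Col3a1, Cxcl12, Pdgfra and Sp7 overlapped. Among the other erythroid markers, Epor was higher under E2 in males, and Klf1 and Alas2 overlapped. The 7 granulocyte genes all had estimates below 0. Their list summed to 6792 to 11908 in E2-treated males, against 7369 to 15216 in oil-treated males. In females it was 5117 to 13321 under E2, against 8893 to 19652 under oil. No marker was at 0 on any array, and the part of these cell types in the result was not tested.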

How the data were processed

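Sorted mouse HSCs were profiled on 12 one-colour arrays. Biotinylated cDNA came from NuGEN kits (Ovation Pico WTA V2, then Encore Biotin), per the labels' protocols. Each deposited value is the intensity of a probe set on a linear scale (0.62 to 16148). Quartiles lay close together between arrays; which summarisation, background correction and normalization the authors used is not stated in the labels.

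Of 35474 probe sets, 21780 had 1 symbol in the platform's annotation and entered as 19935 genes, with the brightest probe set standing for each. The deposited intensities were taken as log2(intensity + 1), and genes whose mean log2 value was above the median of genes (7.52, an intensity of 182) were kept, 9967 in all. limma 3.58.1 in R 4.3.3 fitted 1 mean per group to all 12 arrays, with eBayes and Benjamini-Hochberg adjustment over all kept genes. The steps were tested on simulated data. Python 3.11.15 and matplotlib 3.10.9 were used for tables and figures.

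The 10 genes, the lists, the tests and the naming rule were chosen with earlier results of these data known. The rule named all 10 genes, each list gene called in the averaged comparison, a fixed set of further pathway genes, and the 3 nearest profiles of each called gene. Furin, Tgif1, Itgae, Bhlhe40, Id1, the activin and BMP receptor genes and the cell type markers lie outside that rule; their values were known when they were picked. Promoter windows came from RefSeq (GRCm38.p6), with the matching done on both strands; the sequence of 3 of the Smad genes and of Tgfbr3 is not shown. The number of arrays limits the precision. Alternatives were other normalization, centring, offset, filters, probe set averaging, array weights, trend and robust estimation, a replicate block, the compared groups alone, and each array left out.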

Additional observations from a re-analysis of the deposited data

How the results depend on the processing

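In the averaged comparison the same 5 genes, Tgfbr2, Tgfbr3, Smad3, Smad7 and Ltbp3, passed in each of the 21 alternative fits run: 9 other settings and 12 fits without 1 array. Their largest adjusted p without 1 array was 0.0277, 0.0242, 0.0443, 0.0176 and 0.00764. The number of the 10 genes called ranged from 5 to 6 without 1 array. The number of all genes called in that comparison was 887, ranged from 476 to 1147 without 1 array and was 568 with no filter. The same arrays centred on their median gave 718 calls.

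Calls within a sex moved more. In males, 143 of all genes were called, 409 with array weights, 390 in a fit of the compared groups alone, 80 with no filter, and 62 to 327 without 1 array. Of the 10 genes, 1 was called in males (Ltbp3), against 3 with array weights, 2 in the compared groups alone and 2 with quantile normalization. It was 0 with median centring, with no filter, with the filter at the 25th percentile, with trend and robust estimation and with the replicate block, and 0 to 2 without 1 array. In females, 355 genes were called, 226 with array weights, 67 in the compared groups alone, 183 with no filter, and 115 to 549 without 1 array. Of the 10 genes, 3 were called in females, 1 with array weights, 0 in the compared groups alone, 0 with no filter, 1 with the filter at the 25th percentile, and 0 to 3 without 1 array. The cause was not tested. A filter that keeps more genes adjusts over more of them, which concerns the filter settings alone. Over all genes tested, the median SD within a group was 0.160 on the log2 scale in E2-treated females. In the other groups it was 0.091 to 0.109. The part of this spread in the moves with array weights and in the compared groups alone was not tested. Between the sexes under oil, 4 genes were called, 7 with array weights, 7 in the compared groups alone, 7 with no filter, and 2 to 8 without 1 array. For the difference of the responses it was 1, and 1 to 2 without 1 array. In these last 2 comparisons 0 of the 10 genes were called in any fit. No called value changed sign under any alternative.

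The replicate numbers pair nothing that the labels name. Deviations of same-numbered arrays had a median correlation of -0.0433, with 2 of 18 pairs above 0.1, and 3 of 12 arrays correlated best with an array of their own number. With the replicate block the averaged comparison had 736 calls and the same 5 genes. Median centring gave Eng in females -0.04, against 0.01 without it, and Smad2 in males 0.02, against -0.01; none of these passed. Tgfb1 passed in females without female E2 replicate 1 (-0.37, adjusted p = 0.0449).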
